A study of Mus musculus with 20 samples.

Results

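The 10 genes described here, *Havcr1*, *Lcn2*, *Spp1*, *Clu*, *Vcam1*, *Cp*, *Cd44*, *Cdh6*, *Anxa1* and *Anxa3*, are markers of injured and incompletely repaired kidney tubule, taken by name from the table of 24411 genes. Kidney RNA was sequenced from 20 mice at P125, with a library for each mouse and 5 mice of each sex and genotype. Mutants had lost *Pkd2* through the inducible system *Pax8* rtTA and TetO Cre acting on Pkd2 fl/fl alleles, in which the *Pax8* promoter directs Cre to the tubules and collecting ducts. Controls carried Pkd2 fl/fl with only the rtTA or only the Cre transgene. Every mouse, control or mutant, received doxycycline at 50 mg per kg, and all mice were on an inbred C57BL/6 background. Their 3 litters are called A, B and C. Male controls are named MC1 to MC5, male mutants MM1 to MM5, female controls FC1 to FC5 and female mutants FM1 to FM5, and these numbers do not pair mice across groups. Litter A held MC1 to MC3, MM1, MM2, FC1 and FM1. Litter C held MC5, MM5, FC5 and FM5, and litter B held the remaining mice.

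An injured tubule cell loses its transporters, spreads over the bared basement membrane and divides. Cells that complete this repair regain their transporters, whereas cells that fail to do so keep a flattened, adhesive and secretory state. *Havcr1* (kidney injury molecule) and *Lcn2* (neutrophil gelatinase-associated lipocalin) mark the injured state, in the proximal tubule and mainly in more distal segments respectively. *Vcam1*, *Cd44*, *Spp1* and *Cdh6* are among the genes used to recognize cells in which repair failed. In polycystic kidney disease the cyst wall is lined by dedifferentiated tubule epithelium, and several of these genes are used as markers of that lining.

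Depth ranged from 11307741 to 19324073 counts per library, and *Havcr1*, the scarcest of the 10 genes in female controls, had at least 7 counts in every library. The library of FM4 stood apart, with 14850 genes detected against 16776 to 17724 in the other libraries and 76 genes with exactly 1 count against 708 to 859, so the counts of genes called, the female fold changes and the slopes on kidney size are also given without it. The targeted gene, *Pkd2*, was 272, 298, 250, 332 and 303 CPM (counts scaled to a common library size by TMM) in MC1 to MC5 and 110, 124, 110, 133 and 120 CPM in MM1 to MM5. In females it was 193, 306, 291, 218 and 278 CPM in FC1 to FC5 and 150, 133, 94.8, 182 and 166 CPM in FM1 to FM5. Every mutant lay below every control of its sex. The log2 fold change of *Pkd2* was -1.32 ± 0.0827 (SE) in males (edgeR, adjusted p = 2.2e-05) and -0.80 ± 0.176 in females (edgeR, adjusted p = 0.0276). The kidney to body weight ratio (KBW) was 0.649, 0.678, 0.599, 0.641 and 0.896% in MC1 to MC5 and 0.645, 0.605, 0.599, 0.555 and 0.672% in FC1 to FC5. It was 2.15, 1.22, 1.79, 1.54 and 1.71% in MM1 to MM5 and 1.38, 1.24, 1.46, 0.836 and 1.00% in FM1 to FM5.

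The 10 genes lie on 7 chromosomes of the mm10 (GRCm38) mouse genome. By the GENCODE vM21 annotation, *Havcr1* spans chr11:46735080-46779578 on the plus strand, *Cd44* spans chr2:102811141-102901665 on the minus strand and *Cp* spans chr3:19957054-20009145 on the plus strand. *Lcn2* lies at chr2:32384633-32388252, *Spp1* at chr5:104435118-104441050, *Clu* at chr14:65968483-65981547, *Vcam1* at chr3:116109949-116129688, *Cdh6* at chr15:13028701-13173675, *Anxa1* at chr19:20373428-20390944 and *Anxa3* at chr5:96793339-96845966. Exons of *Cp* overlap those of *Hps3* on the opposite strand, exons of *Vcam1* overlap the antisense gene *Gm43109*, and exons of *Spp1* and *Anxa3* overlap *Gm42793* and *Gm42603*. Strandedness of the counting was not given in the sources used here, so reads in these overlaps cannot be assigned with certainty.

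The 250 bases upstream of a RefSeq gene start (GRCm38.p6) were read for 7 of the 10 genes, in 11 windows because some genes have several starts. *Clu*, *Vcam1* and *Anxa3* had no entry in the table used. Each window was searched on both strands for AP-1 (TGANTCA), STAT (TTCNNNGAA), TEAD (GGAATG) and NF-kB (GGANNTTCC) letters. Among all 32851 promoters in the same table, 6.75% held the AP-1 letters, 7.02% the STAT letters, 12.6% the TEAD letters and 3.59% the NF-kB letters in the same 250 bases. AP-1 letters were found in 1 of the 11 windows, upstream of *Cp*. TEAD letters were found in 2 windows, of *Cp* and *Anxa1*, and NF-kB letters in 1, of *Anxa1*. STAT letters were found in 0 of the 11. The matches did not overlap each other, and a match is a description of the letters and not a bound site. The sequences that follow are windows without annotated exons, for the genes that were called in each sex (*Havcr1*, at the third of its starts, and *Cd44*) and for *Cp*, whose AP-1 letters stand in capitals. They are printed 5′ to 3′ on the strand of the gene, from chr11:46750918-46751167 (plus strand), chr2:102901666-102901915 (minus strand) and chr3:19956804-19957053 (plus strand).
Havcr1: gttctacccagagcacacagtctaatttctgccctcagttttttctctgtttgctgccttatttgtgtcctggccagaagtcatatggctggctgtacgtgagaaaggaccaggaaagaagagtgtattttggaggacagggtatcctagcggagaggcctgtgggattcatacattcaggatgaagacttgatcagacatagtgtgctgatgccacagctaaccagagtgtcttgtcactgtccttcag
Cd44: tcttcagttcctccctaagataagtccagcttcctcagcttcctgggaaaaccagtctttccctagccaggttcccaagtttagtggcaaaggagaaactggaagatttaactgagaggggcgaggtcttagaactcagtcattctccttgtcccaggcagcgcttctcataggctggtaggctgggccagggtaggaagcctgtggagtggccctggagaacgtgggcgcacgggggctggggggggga
Cp: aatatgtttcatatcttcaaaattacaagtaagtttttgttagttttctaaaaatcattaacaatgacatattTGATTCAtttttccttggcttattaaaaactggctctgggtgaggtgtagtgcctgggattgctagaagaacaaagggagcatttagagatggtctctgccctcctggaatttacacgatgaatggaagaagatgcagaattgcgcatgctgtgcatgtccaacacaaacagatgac

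The first question was whether loss of *Pkd2* changed these genes within each sex. All 10 genes had higher mean levels in mutants than in controls of the same sex. In males, 8 of 10 passed an adjusted p of 0.01 as higher in mutants, against 5.25% of the 14010 genes tested. In females, 2 of 10 passed (*Havcr1* and *Cd44*), against 0.457% of 14439 genes. The median log2 fold change of the 10 genes was 1.89 in males and 1.46 in females, against -0.0020 and -0.0029 over all genes tested. Every male mutant lay above every male control for 9 of the 10 genes, all but *Clu*, and 8.75% of all genes tested had that pattern. In females the groups did not overlap for 6 of 10 genes, against 3.73% of all genes tested, and the 4 that overlapped were *Clu*, *Cp*, *Cdh6* and *Anxa3*. Since the kidneys were sequenced whole, more cells of a type and more RNA per cell cannot be told apart.

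**Figure D1:**
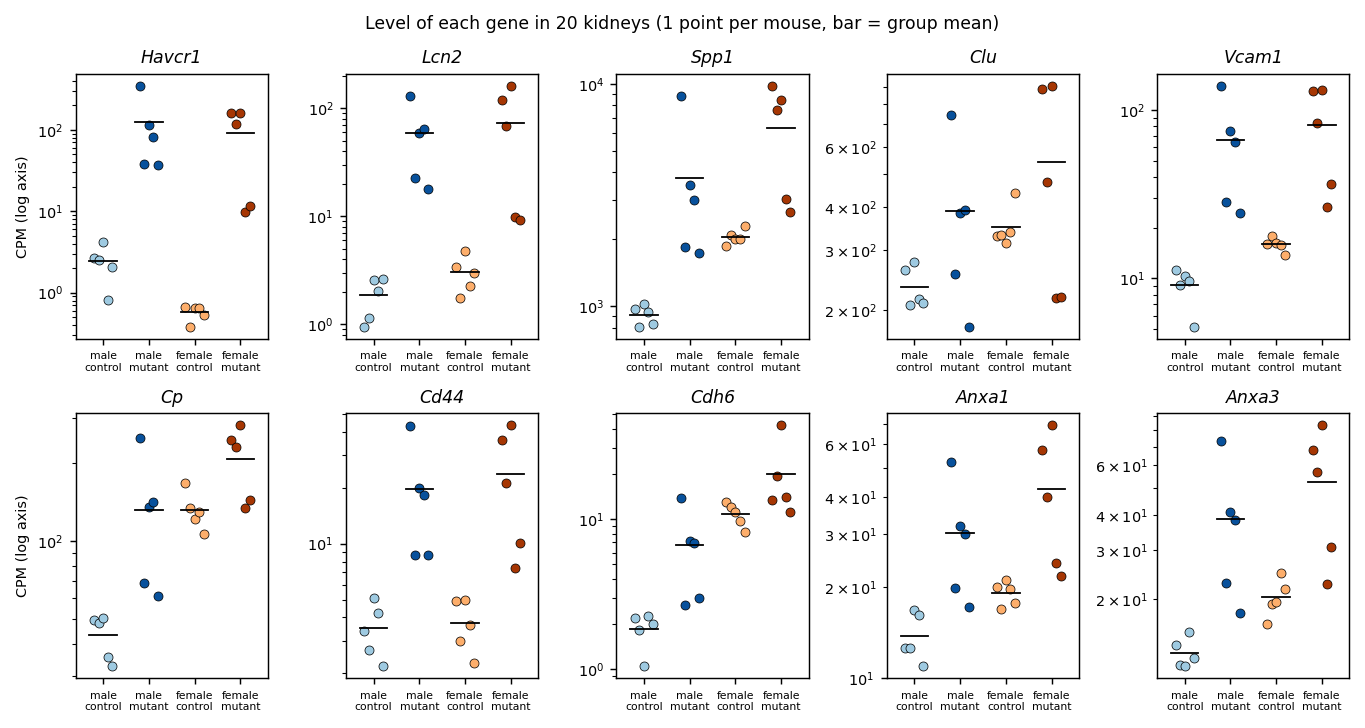
Level of each of the 10 genes in CPM on a log axis, with 1 point per mouse and a bar at the mean of each group of 5 mice. For *Havcr1*, *Lcn2*, *Vcam1* and *Cd44* all 10 mutants lie above all 10 controls, and among female mutants these genes are lower in FM4 and FM5 than in the other 3.

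*Havcr1* encodes a membrane receptor for phosphatidylserine with which injured proximal tubule cells take up dying neighbours. It was 2.64, 2.54, 4.13, 0.812 and 2.06 CPM in MC1 to MC5 and 344, 37.6, 116, 82.6 and 36.6 CPM in MM1 to MM5. Female levels were 0.660, 0.382, 0.649, 0.655 and 0.532 CPM in FC1 to FC5 and 162, 116, 163, 9.66 and 11.7 CPM in FM1 to FM5. The lowest mutant of each sex was well above the highest control of that sex, and FM4 and FM5 stood far below the other female mutants. The log2 fold change was 5.77 ± 0.620 (SE) in males (edgeR, adjusted p = 4.04e-04) and 7.29 ± 0.835 in females (edgeR, adjusted p = 0.00333), the largest of the 10 genes in each sex.

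*Lcn2* encodes a secreted lipocalin that binds iron carried by bacterial siderophores and is released into urine by injured tubules. It was 0.952, 1.14, 2.55, 2.03 and 2.64 CPM in MC1 to MC5 and 129, 22.4, 59.2, 64.9 and 18.0 CPM in MM1 to MM5. FC1 to FC5 had 3.43, 1.75, 4.78, 2.26 and 2.96 CPM, and FM1 to FM5 had 120, 68.7, 161, 9.92 and 9.23 CPM. The groups did not overlap in either sex, and the mutants with the least were MM5 among males and FM4 and FM5 among females. *Lcn2* rose in males (log2 fold change 4.86 ± 0.569 SE, edgeR adjusted p = 5.66e-04), and its value in females was 4.41 ± 0.779 (edgeR, adjusted p = 0.0130).

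*Spp1* encodes osteopontin, a secreted phosphoprotein that binds integrins and CD44 and is made by healthy distal nephron as well as injured tubule. It was 966, 808, 1019, 939 and 829 CPM in MC1 to MC5 and 8776, 1847, 3495, 3002 and 1728 CPM in MM1 to MM5. Among females it stood at 1872, 2087, 2010, 2002 and 2296 CPM in FC1 to FC5 and 9772, 7621, 8442, 3024 and 2655 CPM in FM1 to FM5. Female controls thus held about as much as the lower male mutants, and the groups did not overlap within a sex. *Spp1* rose in males (log2 fold change 2.01 ± 0.360 SE, edgeR adjusted p = 0.00366), and its value in females was 1.55 ± 0.348 (edgeR, adjusted p = 0.0296).

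*Clu* encodes clusterin, a secreted chaperone. It was 261, 206, 276, 215 and 210 CPM in MC1 to MC5 and 742, 255, 383, 392 and 179 CPM in MM1 to MM5. The values of FC1 to FC5 were 329, 330, 313, 338 and 439 CPM and those of FM1 to FM5 were 888, 474, 903, 217 and 219 CPM. FM1 to FM3 lay above all female controls and FM4 and FM5 below all of them, and in males MM2 and MM5 lay within or below the controls. *Clu* did not pass in males (0.71 ± 0.267, edgeR adjusted p = 0.0846) or in females (0.56 ± 0.401, edgeR adjusted p = 0.485).

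*Cp* encodes ceruloplasmin, a copper ferroxidase of the acute phase response. It was 49.6, 48.2, 50.5, 35.6 and 32.7 CPM in MC1 to MC5 and 251, 68.6, 136, 142 and 61.0 CPM in MM1 to MM5. In females it was 168, 135, 122, 129 and 106 CPM in FC1 to FC5 and 246, 232, 280, 134 and 144 CPM in FM1 to FM5. Female controls exceeded 2 of the 5 male mutants, and FM4 and FM5 lay within the range of female controls. *Cp* rose in males (log2 fold change 1.60 ± 0.289 SE, edgeR adjusted p = 0.00383), and its value in females was 0.67 ± 0.182 (edgeR, adjusted p = 0.0571).

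*Vcam1* encodes an adhesion molecule bound by leukocyte integrins, expressed by endothelium and by tubule cells that have not completed repair. It was 11.1, 9.15, 10.4, 9.58 and 5.15 CPM in MC1 to MC5 and 139, 28.3, 75.4, 64.7 and 24.4 CPM in MM1 to MM5. Female levels were 15.9, 17.9, 16.2, 15.7 and 13.8 CPM in FC1 to FC5 and 130, 83.3, 132, 26.6 and 36.5 CPM in FM1 to FM5. Even the lowest mutant of either sex exceeded every control of both sexes. *Vcam1* rose in males (log2 fold change 2.85 ± 0.359 SE, edgeR adjusted p = 7.84e-04), and its value in females was 2.30 ± 0.381 (edgeR, adjusted p = 0.0113).

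*Cd44* encodes the main receptor for hyaluronan, carried by leukocytes and by injured tubule cells. It was 3.37, 2.67, 5.11, 4.22 and 2.19 CPM in MC1 to MC5 and 42.9, 8.68, 19.9, 18.3 and 8.69 CPM in MM1 to MM5. FC1 to FC5 had 4.88, 3.0, 4.95, 3.63 and 2.28 CPM, and FM1 to FM5 had 36.2, 21.2, 43.4, 7.42 and 10.1 CPM. Controls of the sexes covered the same range, and all mutants lay above it. *Cd44* rose by 2.49 ± 0.388 (SE, log2) in males (edgeR, adjusted p = 0.00192) and by 2.65 ± 0.411 in females (edgeR, adjusted p = 0.00912).

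*Cdh6* encodes a cadherin of the developing nephron that persists in the proximal tubule. It was 2.20, 1.84, 1.05, 2.27 and 1.99 CPM in MC1 to MC5 and 13.9, 2.67, 7.14, 6.94 and 2.99 CPM in MM1 to MM5. Among females it stood at 13.1, 12.0, 11.1, 9.71 and 8.28 CPM in FC1 to FC5 and 13.3, 19.5, 42.1, 14.1 and 11.1 CPM in FM1 to FM5. The highest male mutant was thus close to the highest female control, and the female groups overlapped because FM5 lay among the controls. The log2 fold change was 1.77 ± 0.433 (SE) in males (edgeR, adjusted p = 0.0150) and 0.86 ± 0.312 in females (edgeR, adjusted p = 0.140), so that *Cdh6* passed in neither sex alone. In males it passed with DESeq2 (adjusted p = 2.65e-04), with no filter on low counts, with no litter term and with all 20 mice in 1 fit.

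The annexins are cytosolic proteins that bind membrane phospholipids when calcium rises, and annexin A1 also restrains inflammation when secreted. *Anxa1* was 12.6, 12.5, 16.8, 16.2 and 10.9 CPM in MC1 to MC5 and 52.1, 20.0, 32.0, 30.2 and 17.2 CPM in MM1 to MM5. The values of FC1 to FC5 were 20.1, 17.0, 21.2, 19.7 and 17.8 CPM and those of FM1 to FM5 were 57.5, 40.0, 69.1, 24.1 and 21.7 CPM. The lowest mutants, MM5 and FM5, exceeded the highest control of their sex only narrowly. *Anxa1* rose in males (log2 fold change 1.11 ± 0.232 SE, edgeR adjusted p = 0.00762), and its value in females was 1.13 ± 0.277 (edgeR, adjusted p = 0.0402).

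*Anxa3*, a second annexin of the tubule, was 13.8, 11.7, 11.6, 15.3 and 12.4 CPM in MC1 to MC5 and 73.2, 22.8, 41.0, 38.4 and 17.8 CPM in MM1 to MM5. In females it was 16.3, 19.3, 19.6, 24.8 and 21.7 CPM in FC1 to FC5 and 68.2, 56.7, 83.2, 22.7 and 30.7 CPM in FM1 to FM5. Only FM4 lay within the range of its controls. *Anxa3* rose in males (log2 fold change 1.52 ± 0.300 SE, edgeR adjusted p = 0.00571), and its value in females was 1.36 ± 0.324 (edgeR, adjusted p = 0.0360).

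**Figure D2:**
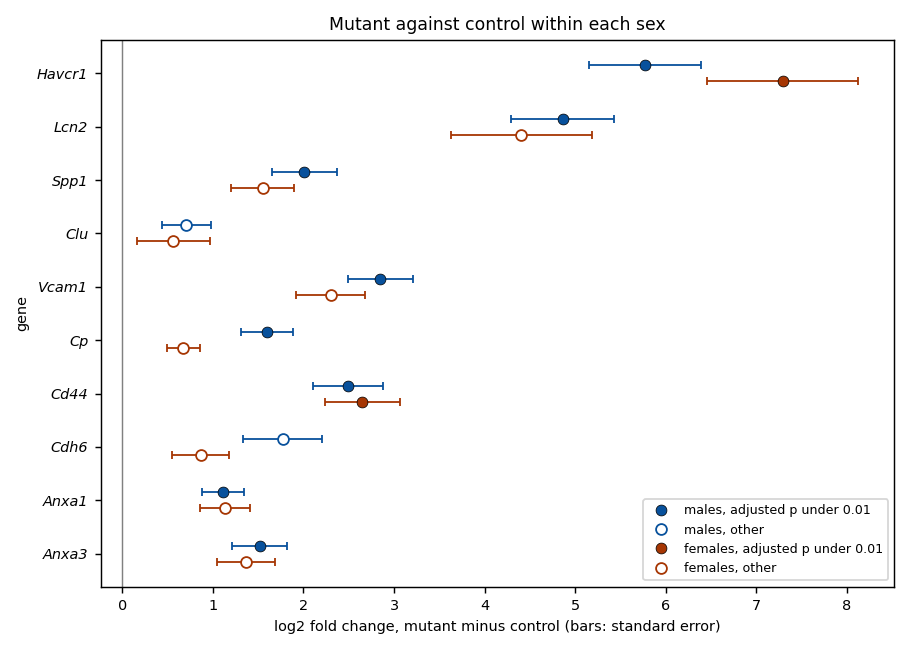
Log2 fold change of mutants against controls for each gene in males (blue) and females (brown), with bars for the standard error, 5 mice per group and filled points for an adjusted p under 0.01. *Havcr1* (5.77 and 7.29) and *Lcn2* (4.86 and 4.41) have the largest values, and *Clu* the smallest (0.71 and 0.56).

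The count of genes that passed depended on single mice. In males it was 4 without MC1, MC2 or MC3, 3 without MC4 and between 6 and 9 without any other mouse. In females it was 8 without FM4, the same 8 genes that DESeq2 called with all 10 mice (all but *Clu* and *Cdh6*), 0 without FC1, FC2, FC3, FC4, FM1 or FM5, 1 without FC5 or FM2 and 2 without FM3. Without FM4 the log2 fold change in females was 7.66 for *Havcr1*, 4.71 for *Lcn2*, 2.90 for *Cd44*, 2.53 for *Vcam1*, 1.73 for *Spp1*, 1.57 for *Anxa3*, 1.28 for *Anxa1* and 0.80 for *Cp* (edgeR, adjusted p between 2.94e-05 and 0.00647). It was 0.99 for *Cdh6* and 0.76 for *Clu*, which did not pass (edgeR, adjusted p = 0.0537 and 0.190). With all 20 mice in 1 fit, 7 passed in females. The direction was the same in every such fit. Calls over all genes moved as well. In males 1185 of 14010 passed with all mice, 187 of 14161 without MC4 and 1863 of 14133 without MM2. In females 92 of 14439 passed with all mice, 866 of 14595 without FM4 and 3 of 14592 without FC2. DESeq2 called 950 of 15282 genes in females, and 856 of 14820 passed with all 20 mice in 1 fit.

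In the joint comparison of the sexes, which held each combination of sex and litter constant, 9 of 10 genes rose, against 10.0% of the 14191 genes tested. *Havcr1* rose by 6.33 ± 0.568 (SE, log2; edgeR adjusted p = 1.85e-06), *Lcn2* by 4.60 ± 0.523, *Cd44* by 2.56 ± 0.301 and *Vcam1* by 2.54 ± 0.287. The rises of *Spp1* (1.77 ± 0.274), *Anxa3* (1.42 ± 0.235), *Cdh6* (1.22 ± 0.294), *Anxa1* (1.11 ± 0.189) and *Cp* (1.10 ± 0.212) were smaller. *Clu* did not pass (0.62 ± 0.256, edgeR adjusted p = 0.0807). For *Havcr1*, *Lcn2*, *Vcam1* and *Cd44* all 10 mutants lay above all 10 controls, a pattern shown by 0.979% of all genes tested. Leaving out each mouse in turn left 8 or 9 genes. *Cdh6* did not pass without FM3, MC4 or FC4 (edgeR, adjusted p = 0.0139, 0.0135 and 0.0104). Calls over all genes ran from 1656 of 14288 without MC4 to 2994 of 14274 without FM4.

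Litter was unevenly spread over the groups, so mutants were also compared with controls of their own sex and litter. All 10 genes were higher in mutants in litters A and B in both sexes, and 9 of 10 in litter C, where *Clu* was lower by both comparisons. Such shares over all genes are not given here. The median difference of the 10 genes in log2 CPM was 1.98 in litter A, 1.87 in litter B and 0.98 in litter C in males. In females it was 2.22, 1.34 and 0.47 in the same order. Litter C had the smallest median in each sex, and it held 1 mutant and 1 control of each sex, so litter and mouse cannot be told apart there. *Havcr1* in litter C was higher in the mutant by 4.07 (log2) in males and 4.17 in females, and *Spp1* by 1.06 and 0.21.

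The second question was whether the response differed by sex. None of the 10 genes passed the test of the sex-by-genotype term (edgeR, all adjusted p = 1, and 0.00% of the 14820 genes tested passed), and DESeq2 also called 0. At an unadjusted p under 0.05, 1 of the 10 passed, *Cp*, against 4.17% of all genes. Its log2 fold change was larger in males by 0.96 (95% interval 0.18 to 1.73, edgeR adjusted p = 1). *Cdh6* had a difference of nearly the same size (0.95, interval -0.25 to 2.15). *Havcr1* had the widest interval (-1.52, interval -4.17 to 1.12), so neither a larger response in females nor an equal one was resolved. The interval of *Anxa1* ran from -0.79 to 0.81 around a difference of 0.0097.

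Levels without loss of *Pkd2* did differ by sex. Between control kidneys, 6 of 10 genes were lower in males, against 9.02% of the 14123 genes tested, and 1 was higher in males, against 8.75%. *Cdh6* had the largest difference, with 1.87 ± 0.488 CPM (SD, n = 5) in male controls and 10.8 ± 1.88 CPM in female controls (log2 difference, male minus female, -2.47 ± 0.209 SE, edgeR adjusted p = 3.88e-06). *Cp* was 43.3 ± 8.46 CPM in males and 132 ± 22.9 CPM in females (-1.74 ± 0.0663, edgeR adjusted p = 3.0e-09). These cadherin and ferroxidase genes were also the 2 that passed with all 20 mice in 1 fit. *Spp1* (-1.12 ± 0.0962), *Vcam1* (-0.83 ± 0.133), *Clu* (-0.61 ± 0.112) and *Anxa3* (-0.49 ± 0.117) were lower in male controls by less. The call of *Anxa3* was lost when any mouse but MC1, FC2 or FC3 was left out (edgeR, adjusted p between 0.0110 and 0.0426), and that of *Clu* without MC4 (edgeR, adjusted p = 0.0138).

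*Havcr1* was higher in male controls, at 2.44 ± 1.19 CPM (SD, n = 5) against 0.575 ± 0.121 CPM in female controls (log2 difference 1.61 ± 0.367 SE, edgeR adjusted p = 0.00599). All 5 male controls exceeded all 5 female controls, though narrowly for MC4 (0.812 CPM) against FC1 (0.660 CPM). The share of all genes with that pattern is not given here. These levels rested on few reads, 10 to 55 counts per male library and 7 to 11 per female library. The call was lost without MC1, MC5, FC1, FC2 or FC5 (edgeR, adjusted p between 0.0108 and 0.0848) and with all 20 mice in 1 fit (edgeR, adjusted p = 0.280). *Anxa1* (-0.42 ± 0.124, edgeR adjusted p = 0.0222), *Lcn2* (-0.64 ± 0.371) and *Cd44* (-0.09 ± 0.238) did not pass.

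**Figure D3:**
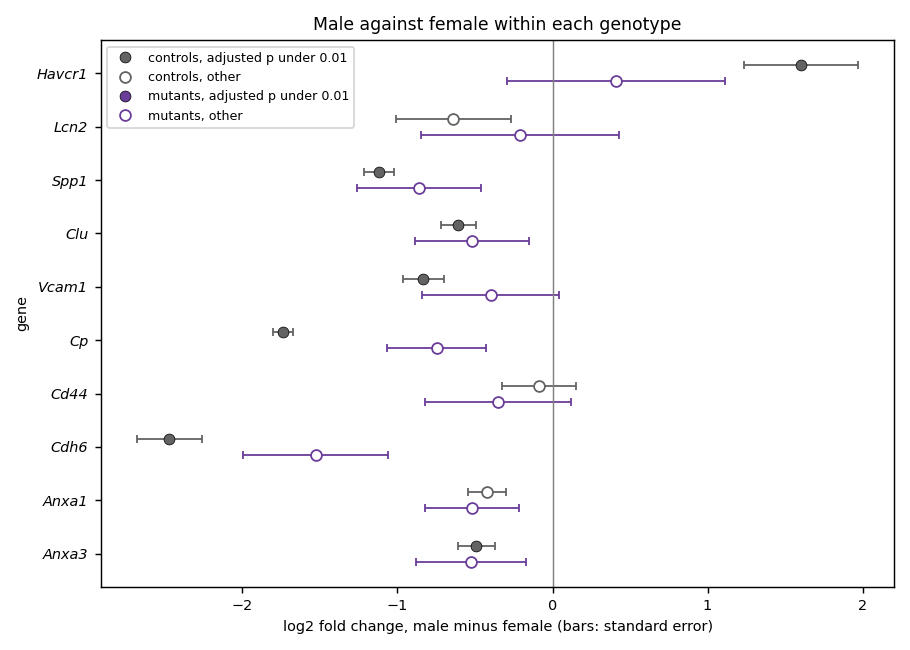
Log2 difference between males and females in controls (grey) and in mutants (purple) for each gene, with bars for the standard error, 5 mice per group and filled points for an adjusted p under 0.01. In controls 7 genes pass, with *Havcr1* (1.61) to the right of 0 and *Cdh6* (-2.47) farthest to the left, and in mutants 0 pass and the bars are longer.

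Between mutant kidneys 0 of 10 genes passed in edgeR, against 5.42% of the 14416 genes tested. DESeq2 called 1 (*Cdh6*), and 1902 of all 15641 genes it tested. At an unadjusted p under 0.05, 2 of 10 were lower in males, *Cdh6* and *Cp*, against 14.6% of all genes. *Cdh6* was 6.72 ± 4.51 CPM (SD, n = 5) in male mutants and 20.0 ± 12.7 CPM in female mutants (log2 difference, male minus female, -1.53 ± 0.467 SE, edgeR adjusted p = 0.0520). Standard errors were larger than between controls for all 10 genes, from 0.639 against 0.371 for *Lcn2* to 0.317 against 0.0663 for *Cp*. Whether this held for most other genes is not given here. The median of the 10 log2 differences was -0.52 between mutants and -0.62 between controls.

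Because read counts rise with transcript length, levels of different genes were compared only as CPM per kilobase of annotated exon. That length joined the exons of all annotated transcripts of a gene, so the order of the genes depends on this choice. *Spp1* was highest in every group, at 554 ± 55.1 (SD, n = 5) in male controls, 1246 ± 94.7 in female controls, 2287 ± 1759 in male mutants and 3825 ± 1976 in female mutants. *Clu* came next in every group, from 68.0 ± 9.40 in male controls to 157 ± 99.1 in female mutants. In male controls *Anxa1* (4.74 ± 0.869), *Cp* (4.53 ± 0.884) and *Anxa3* (3.55 ± 0.430) followed, and *Anxa1* and *Cp* did not differ beyond their spread. *Havcr1* (1.05 ± 0.517), *Vcam1* (1.02 ± 0.262), and *Lcn2* (0.71 ± 0.299) lay within each other's spread, *Cd44* (0.518 ± 0.174) lay below *Vcam1* but within the spread of *Havcr1* and *Lcn2*, and *Cdh6* was lowest (0.207 ± 0.0541). In male mutants *Havcr1* (53.3 ± 55.3) and *Lcn2* (22.4 ± 17.1) came next after *Clu*, with spreads nearly as wide as the values, and in female mutants they did so too (40.0 ± 33.3 and 28.1 ± 25.6). In female controls *Havcr1* was the lowest of the 10 genes (0.249 ± 0.0522), and *Cd44* came next (0.553 ± 0.173).

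All 10 genes spanned a wider range over the mutants than over the controls of the same sex. The share of all genes that did so is not given here. *Havcr1* spanned 9.41-fold over the male mutants and 16.8-fold over the female mutants, against 5.09-fold and 1.73-fold over the controls. *Lcn2* spanned 7.21-fold and 17.4-fold, against 2.77-fold and 2.74-fold. *Spp1* spanned 5.08-fold and 3.68-fold in mutants against 1.26-fold and 1.23-fold in male and female controls, and *Cp* in females 2.09-fold against 1.58-fold. The order of the mice was shared among the genes. MM1 was the highest male mutant for all 10 genes, and MM5 was the lowest for 8 and MM2 for the other 2. Among female mutants FM3 was highest for 9 genes and FM1 for 1, and FM4 was lowest for 6 and FM5 for 4.

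Over the 10 mutants the Pearson correlation of log2 CPM between members of the list was 0.91 in the median of the 45 pairs, and 34 pairs reached 0.8. It was highest for *Vcam1* and *Cd44* (0.99) and lowest for *Havcr1* and *Cdh6* (0.32). *Cdh6* with *Lcn2* (0.48) and *Cp* with *Havcr1* (0.59) were the next lowest. Without FM4 the median was 0.93. These values are descriptions, since all pairs share the same 10 libraries. No such median over pairs of other genes is given here. The genes outside the list whose log2 CPM lay closest to the mean standardized level of the 10 genes, among 13837 compared, were *Anxa2* (r = 0.999), a calcium-dependent membrane binding protein, *Pea15a* (0.993) and *H2-Eb1* (0.991), which encodes a chain of the class II histocompatibility molecule of antigen-presenting cells. Without FM4 they were *Anxa2*, *Tlr2* and *S100a6*.

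**Figure D4:**
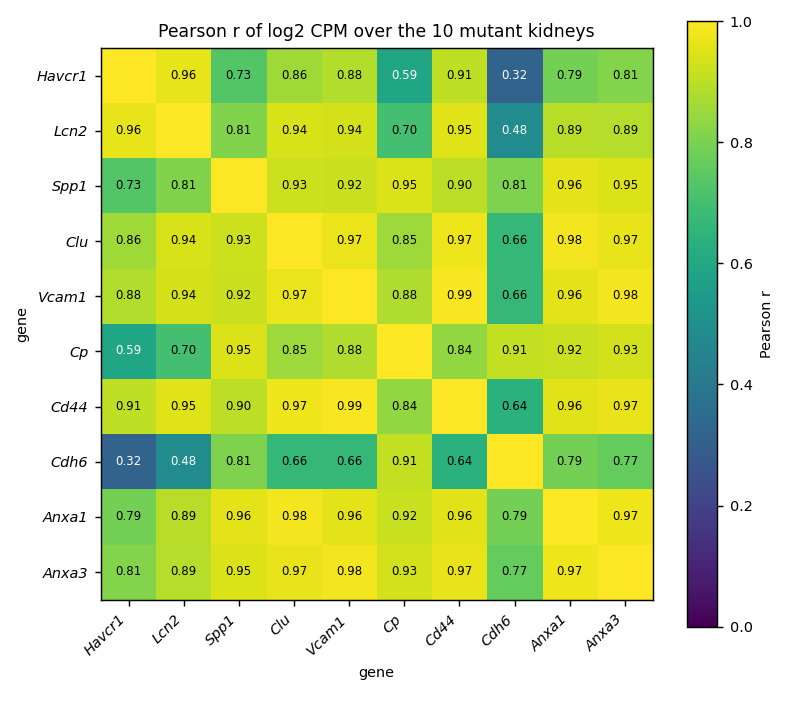
Pearson correlation of log2 CPM between each pair of the 10 genes over the 10 mutant kidneys, written in each cell and coloured from 0 to 1. The pair *Vcam1* and *Cd44* reaches 0.99, and the row of *Cdh6* holds the lowest value (0.32, with *Havcr1*).

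The third question was how the levels followed kidney size. Male mutants had the larger KBW (1.68% ± 0.338, SD, n = 5, against 1.18% ± 0.261 in female mutants). Between mutants the median log2 difference of the 10 genes, male minus female, was -0.52, though 0 of 10 passed. The relation was therefore fitted with sex as a covariate. The slope was positive for all 10 genes, from 1.79 ± 0.374 (SE, log2 per percentage point of KBW) for *Cp* to 4.49 ± 0.834 for *Havcr1*. *Lcn2* (3.98 ± 0.935), *Cd44* (3.0 ± 0.474) and *Vcam1* (2.89 ± 0.508) had the next steepest slopes. At an unadjusted p under 0.05 all 10 passed, against 11.5% of all 14416 genes as positive slopes. At an adjusted p of 0.01, 0 of 10 passed in edgeR (adjusted p between 0.0271 and 0.0557) and 0.00% of all genes did. DESeq2 called 9 of 10, all but *Clu*, and 586 of all 14544 genes it tested. The median slope was 2.40, against -0.057 over all genes tested. With litter added to the fit the slopes ran from 1.65 for *Cp* to 4.21 for *Havcr1*. *Spp1* passed in that fit, as 1 of 10 called among all 14416 genes. Without MM5 6 of the listed genes passed, and 76 of all 14589 genes tested. Without FM4 the slopes ran from 1.81 for *Anxa1* to 3.94 for *Havcr1*, and the adjusted p from 0.119 to 0.163 (edgeR).

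Across all 10 mutants without regard to sex, the correlation with KBW was weaker. For *Havcr1* Pearson's r was 0.76 (permutation p = 0.00997, two-sided) and Spearman's rho 0.60 (permutation p = 0.0731), and r was 0.47 without MM1 and FM4, the mice farthest from the median KBW. For *Lcn2* r was 0.61 (permutation p = 0.0614) and rho 0.52 (permutation p = 0.134), and r was 0.34 without those mice. For *Cd44* r was 0.56 and for *Vcam1* 0.50, with permutation p of 0.0919 and 0.141 and rho of 0.53 and 0.43. For *Clu*, *Anxa3*, *Anxa1*, *Spp1*, *Cp* and *Cdh6* r fell from 0.41 to -0.12, with permutation p of 0.239 or more. These 10 relations form 1 family, and their p-values are given without adjustment.

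After levels and KBW were centred within each sex, r rose to between 0.74 (*Cdh6*) and 0.88 (*Cd44*), and the exact permutation p within sex lay between 0.00299 and 0.0260 over 14400 relabellings. Without MM1 and FM4 the centred r lay between 0.57 (*Cp*) and 0.73 (*Cd44*), and *Havcr1* (r = 0.71, exact permutation p = 0.0469 over 576 relabellings) was the only gene under 0.05. The relation with KBW within sex thus rested in part on the mice with the largest and the smallest KBW. The order of the mice was compared with that of KBW within each sex. In females, 6 of 10 genes followed the order of KBW exactly, from FM3 through FM1, FM2 and FM5 to FM4. The share of all genes with that order is not given here. The 10 genes moved together (median r of pairs 0.91), and FM4 was the library that stood apart. In males 0 of 10 did, since MM5 had the third largest KBW (1.71%) and levels close to those of MM2, which had the smallest (1.22%). MM5 and FM5 were the mutants of litter C.

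**Figure D5:**
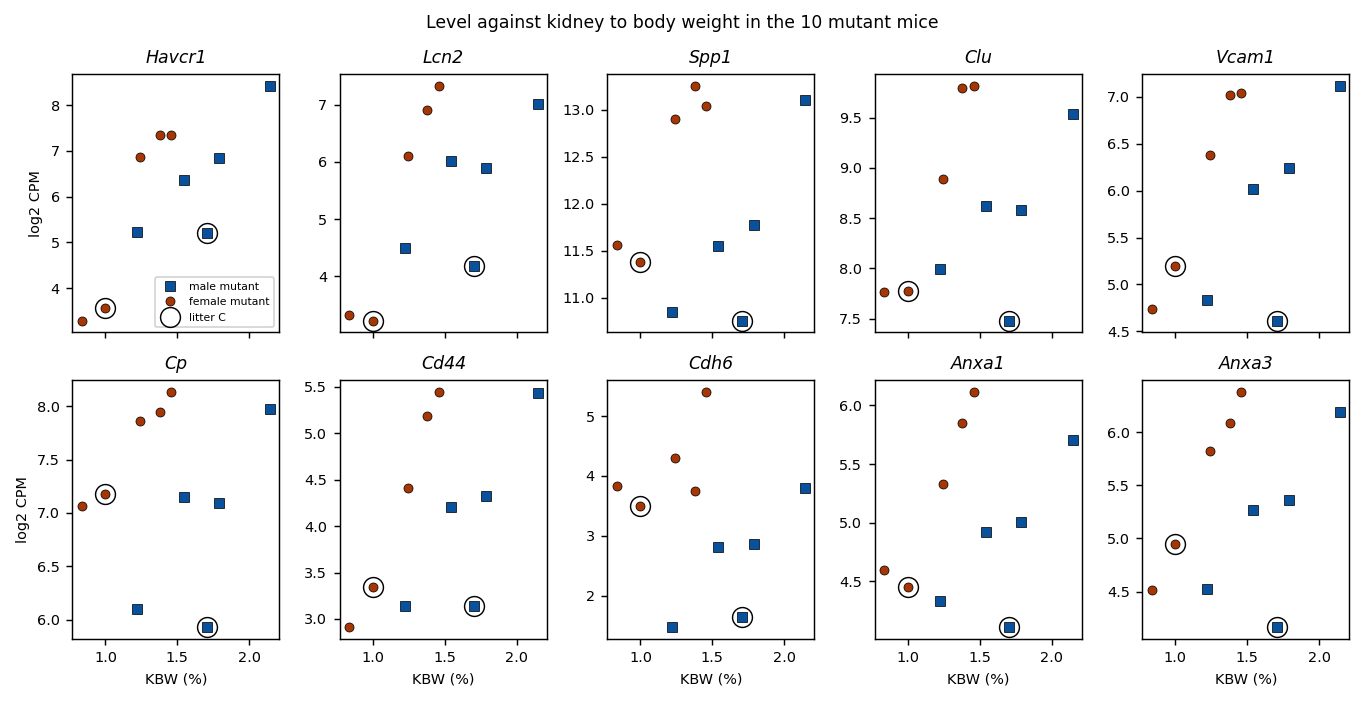
Log2 CPM of each gene against KBW in percent for the 10 mutants, with blue squares for males, brown circles for females and a ring around the 2 mutants of litter C. Within females the points of 6 genes rise in the order of KBW. Within males MM5 lies low at a KBW of 1.71%, and MM4 (1.54%) lies above MM3 (1.79%) for *Lcn2*, *Clu* and *Cp*.

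Other genes of injured and incompletely repaired tubule mostly moved in the same direction. The lists that follow were chosen with earlier results of these data known, so their counts are descriptions and not independent tests. Of 44 genes on a wider list 41 were tested, and 34 rose and 1 fell in the joint comparison, in which 10.0% of all genes tested rose and 5.86% fell, with a median log2 fold change of 1.15. The largest changes were those of *Timp1*, an inhibitor of matrix metalloproteinases (5.28 ± 0.490 SE, edgeR adjusted p = 1.91e-06), *Krt20*, a keratin of injured tubule (5.13 ± 0.628), and *Ccl2*, a chemokine for monocytes (3.27 ± 0.387). The gene that fell was *Hopx* (-0.53, chosen after its values were seen). Partners of the 10 genes were called about as often as all genes. Of 24 ligands and receptors 19 were tested, and 2 rose, the integrin chains *Itga9* (0.55 ± 0.119) and *Itgb1* (0.45 ± 0.0780), and 1 fell, *Slc22a17* (-0.30 ± 0.0800), which encodes a receptor for lipocalin. Of 9 other annexins tested 2 rose, *Anxa2* (1.20 ± 0.190) and *Anxa5* (0.60 ± 0.112), and both are also on the wider list. Of 7 other kidney cadherins 2 rose, *Cdh3* (1.37 ± 0.224) and *Cdh11* (1.10 ± 0.178), and 1 fell, *Cdh13* (-0.81 ± 0.162). The medians of these 3 lists were 0.11, 0.23 and 0.22, against -0.012 over all genes tested.

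Markers of macrophages and monocytes and of fibroblasts and pericytes, some of which also make *Cd44*, *Vcam1*, *Spp1* and *Anxa1*, moved with the 10 genes. In the joint comparison 10.0% of all genes tested rose. All 9 macrophage and monocyte markers rose in the joint comparison, with a summed level of 132 to 160 CPM in male controls, 242 to 687 CPM in male mutants, 160 to 197 CPM in female controls and 180 to 932 CPM in female mutants. Of 8 fibroblast and pericyte markers 5 rose, with a summed level of 234 to 304 CPM in male controls, 411 to 1188 CPM in male mutants, 329 to 499 CPM in female controls and 484 to 1581 CPM in female mutants. FM4 was the lowest female mutant for both sums, and 0 of these 17 markers were at 0 in any mouse. Neutrophil markers, which matter for *Lcn2*, summed to 1.90 to 2.86 CPM in male controls, 2.26 to 6.62 CPM in male mutants, 3.03 to 3.49 CPM in female controls and 0 (FM4) to 9.93 CPM in female mutants. These markers were scarce, and the library of FM4 had 76 genes with exactly 1 count against 708 to 859 in the others. Its sum of 0 therefore cannot be read as absent neutrophils. The median log2 fold change of the 3 neutrophil markers tested was 0.57, and 0 of them passed in the joint comparison. Of 7 endothelial markers 0 passed there, with a median of -0.091. In males 2 of the 7 rose, against 5.25% of all genes tested. The part of these cells in the levels of the 10 genes was not tested.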

How the data were processed

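Total RNA of 20 mouse kidneys was sequenced, 1 library per mouse. The authors trimmed the reads with fastp 0.23.2, aligned them to mm10 with STAR 2.7.10b and deposited whole-number counts per gene symbol without normalization. The counting tool, gene annotation and strandedness are not given in the sources used here. KBW is the labelled kidney weight (taken as mg, for 1 kidney) as a percentage of body weight (taken as g), since the labels name no unit. A second deposited file, the series record, was not used, and all 20 columns of counts were.

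The tests were run with edgeR 4.0.16 under R 4.3.3 (TMM, filterByExpr, quasi-likelihood test, Benjamini-Hochberg adjustment over all genes tested), at an adjusted p under 0.01. Litter was the covariate within a sex or genotype, the 6 groups of sex and litter in the joint and sex-by-genotype fits, and sex in the fit on KBW. CPM used TMM library sizes, and log2 CPM a prior count of 2. Correlations were tested with 100000 permutations, or all relabellings within sex. Each library held 11307741 to 19324073 counts. The 10 genes and all lists were chosen with earlier results of these data known. Genes outside the 10 are named where they are among the 3 largest changes of their list with a mean of at least 1 CPM, or the 3 nearest in level. Alternatives were DESeq2 1.42.0 size factors and Wald test, other filters, covariates and scales, and each mouse left out. The procedure was tested on simulated data. Histology and blood urea nitrogen were not analysed here.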

Additional observations from a re-analysis of the deposited data

Results flagged for a closer look

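In each group of 5 mice, the gap between the most extreme mouse and its neighbour was compared with Dixon's 95% limit on log2 CPM, for 10 genes and 4 groups. Chance flags about 1 in 20 such groups, and 3 of 40 were past the limit, all in controls. FC5 was the highest female control for *Clu*, at 439 CPM against 338 CPM in the next (gap 0.772 of the range). MC5 was the lowest male control for *Vcam1*, at 5.15 CPM against 9.15 CPM in the next (gap 0.746 of the range). MC3 was the lowest male control for *Cdh6*, at 1.05 CPM against 1.84 CPM in the next (gap 0.722 of the range). FC5 and MC5 were the controls of litter C.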

How the results depend on the processing

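The joint count of 8 or 9 genes and the direction of mutants against controls within each sex held under every alternative run, as did the count of 0 for the sex-by-genotype term, whereas the other counts of genes past the threshold changed under some of them. No paired analysis was possible because the labels give no replicate numbers, and litter already served as a block. In females the count of 2 became 8 with DESeq2's Wald test, 7 with all 20 mice in 1 fit, 4 with no filter on low counts, 4 with no litter term and 1 with at least 10 counts in every mouse. The count between control sexes (7) became 2 with all 20 mice in 1 fit. That between mutant sexes (0) became 1 in that fit and 1 under the Wald test of DESeq2. Over all genes, calls between control sexes went from 2510 of 14123 to 1700 of 14820 in that fit. Between mutant sexes they went from 782 of 14416 to 2353 of 14820 in that fit and 1902 of 15641 under the Wald test. For the slope on KBW the count of 0 became 9 with DESeq2's Wald test and 1 with sex and litter terms, and the slope of *Cdh6* was -0.27 with no sex term. *Havcr1* was also not tested in the joint comparison under the count minimum, where 8 of 9 genes passed. The cause of the other changes was not tested. Leaving out each mouse gave 3 to 9 genes in males, 0 to 8 in females, 5 to 7 between control sexes, 0 to 1 between mutant sexes and 0 to 6 for the slope.

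The sex-by-genotype difference of *Anxa1* (0.0097) became -0.025 with DESeq2 size factors, -0.022 with DESeq2's Wald test, -0.011 with at least 10 counts in every mouse and -0.017 with no litter term. Leaving out each mouse, that difference ran from -0.46 to 0.30 for *Anxa1*, -0.57 to 1.13 for *Lcn2*, -0.30 to 0.73 for *Spp1*, -0.35 to 0.59 for *Clu*, -0.19 to 0.90 for *Vcam1*, -0.43 to 0.45 for *Anxa3* and -0.93 to 0.31 for *Cd44*. The male minus female difference ran from -0.25 to 0.12 for *Cd44* in controls, and from -0.076 to 0.71 for *Havcr1* and -0.53 to 0.26 for *Lcn2* in mutants.

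The median Pearson r of the 10 genes with KBW (0.39, jackknife SE 0.31) became 0.82 after centring within sex and 0.046 without MM1 and FM4. Without those mice r was -0.098 for *Spp1*, -0.20 for *Cp* and -0.063 for *Anxa3*. For *Cdh6* r became 0.74 after centring within sex, and 0.62 with both changes, the latter chosen after seeing the data. Leaving out each mouse, r ran from -0.13 to 0.36 for *Cp* and from -0.27 to 0.0099 for *Cdh6*. Mean CPM under DESeq2 size factors, also added after seeing the data, moved no mean by more than its SD.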

Other observations

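Some markers of the nephron segments and of the glomerulus were lower in mutants in the joint comparison. Of 8 markers of thick ascending limb and distal convoluted tubule 7 fell, of 8 collecting duct markers 5 fell, of 5 podocyte markers 4 fell and of 14 proximal tubule markers 2 fell (edgeR, adjusted p under 0.01), against 5.86% of all genes tested. Their median log2 fold changes were -0.71, -0.38, -0.56 and -0.21, against -0.012 over all genes tested. Proximal tubule markers summed to 12021 to 27922 CPM in female mutants and 25215 to 33562 CPM in female controls, and to 41141 to 57579 CPM in male mutants and 48703 to 60612 CPM in male controls. The 5 T and B lymphocyte markers tested had a median of 0.66, and 0 of them passed. The 7 on that list summed to 4.90 to 8.12 CPM in male controls and 5.98 to 11.6 CPM in male mutants. In females they summed to 5.70 to 10.6 CPM in controls and 1.38 (FM4) to 21.2 CPM in mutants. The sum of FM4 came from scarce genes in the library that stood apart, so it cannot be read as fewer lymphocytes.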
